A study of Mus musculus with 6 samples.

Results

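Immediate early genes are switched on within minutes of a stimulus and without new protein synthesis. The 10 genes described here are Fos, Fosb, Fosl2, Jun, Junb, Egr1, Dusp1, Ier2, Btg2 and Atf3. They were chosen by name as genes of this class, with earlier results of these data known. Every probe set annotated to one of them was taken, in all 13 of 45037 non-control probe sets on the array. Of these, 12 passed a filter on low signal and were tested among 27022 kept probe sets, while the single probe set of Fosb did not pass and its values are given without a test.

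The arrays measured RNA of mouse retina at postnatal day 21 (P21), from mice of mixed sex on standard chow, with 2 retinas pooled for each sample. Of the 6 arrays, 3 were from wildtype mice of strain C57Bl/6 and 3 from mice labelled ERRβ -/- knockout on a C57Bl/6 x Sv129 background, ERRβ being the orphan nuclear receptor encoded by Esrrb. The comparison asks which retinal transcripts differ in level in the labelled knockout, and strain background and genotype cannot be told apart in it. The sources used here do not give the deleted part of the gene, the time of day or the light state at dissection.

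The deposited signals were on 2 scales, with a mean near 500, after trimming, in replicates 1 and 2 of each group and near 150 in replicate 3 of each group. The 4 arrays scaled near 500 are called the first batch and the 2 scaled near 150 the second batch, and each holds both groups in equal numbers. Log2 signals of the kept probe sets correlated at r = 0.953 to 0.978 between arrays of the same batch and at 0.799 to 0.864 between batches. A scaling factor does not change such a correlation, so the batches differed in more than scale, and the source of this was not tested. A log2 fold change is labelled knockout minus wildtype from a limma fit to all 6 arrays with the batch as a block, and is given ± its standard error (SE, from 3 arrays a group). Adjusted p is limma's p after Benjamini-Hochberg adjustment over all 27022 tested probe sets, with a threshold of 0.05. The number of arrays limits the precision. Signals can be compared between the groups within a batch, but not between batches or between probe sets.

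Several facts of the whole series bear on these values. None of the 3 probe sets of Esrrb was lower in the labelled knockout (log2 fold changes of 0.19 to 0.45, adjusted p of 0.0529 to 0.439), so its signal does not check the labels. For Actb the signal of its 3′ probe set over that of its 5′ probe set, which is lower in more intact RNA, was 1.83 to 2.32 in wildtype and 1.66 to 1.82 in labelled knockout arrays. For Gapdh the same ratio was 0.712 to 0.779 in wildtype and 0.719 to 0.731 in labelled knockout arrays, so that the groups overlapped. The 7 tested rod photoreceptor markers all had log2 fold changes below 0 and a summed signal of 226500 and 228800 in wildtype against 184400 and 204300 in labelled knockout arrays of the first batch, and 36290 against 34860 in the second, with none past the test. None passed among tested markers of cones, bipolar cells, amacrine and ganglion cells, Müller glia, microglia, or vessels and blood. The median log2 fold changes of these lists were 0.042 to 0.163. Lens markers were higher in the labelled knockout (7 of 8 tested passed, with a summed signal of 1737 and 2038 against 36980 and 42230 in the first batch and 4650 against 24500 in the second), as were pigment epithelium markers (4 of 5, with 10600 and 11810 against 17140 and 17500, and 408 against 838). No tested marker on these lists had a signal of 0, but without detection calls this does not show which were above background. The part of these lens and pigment cell transcripts and of the Actb and Gapdh ratios in the results below was not tested. In whole retina, fewer cells that express a gene and less of its RNA per cell cannot be told apart.

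Fos, Fosb, Fosl2, Jun, Junb and Atf3 encode bZIP proteins, which bind DNA as dimers joined by a leucine zipper. A Fos protein needs a partner, classically a Jun protein, and the dimer is the transcription factor AP-1. Egr1 encodes a zinc finger transcription factor, and Dusp1 a phosphatase that removes the activating phosphates from MAP kinases, the enzymes that relay the inducing signal. Btg2 encodes an antiproliferative protein and Ier2 a small nuclear protein. In neurons calcium entry and growth factor signals reach these genes through phosphorylated CREB at cAMP response elements and through serum response factor at CArG boxes, and in retina they are known to answer changes of light. RNA of these genes also accumulates on injury, heat and handling of tissue.

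RefSeq promoter sequences of build GRCm38.p6 were at hand for 8 of the 10 genes, but not for Egr1 and Ier2. The 250 bases before the transcription start are shown for Fos and Dusp1, whose values were lower in both batches. They are also shown for Fosl2 and Btg2, whose probe sets disagreed in at least 1 batch. Jun and Atf3 are shown as genes that were not lower over all arrays, though the Jun probe sets differed in sign in the first batch (0.089 and -0.056). Capitals mark TGACG on either strand, the core of the cAMP response element. The windows are chr12:85473640-85473889 (plus strand) for Fos, chr5:32136222-32136471 (plus strand) for Fosl2, chr17:26508473-26508722 (minus strand) for Dusp1, chr1:134079156-134079405 (minus strand) for Btg2, chr4:95052223-95052472 (minus strand) for Jun and chr1:191183334-191183583 (minus strand) for Atf3.
Fos: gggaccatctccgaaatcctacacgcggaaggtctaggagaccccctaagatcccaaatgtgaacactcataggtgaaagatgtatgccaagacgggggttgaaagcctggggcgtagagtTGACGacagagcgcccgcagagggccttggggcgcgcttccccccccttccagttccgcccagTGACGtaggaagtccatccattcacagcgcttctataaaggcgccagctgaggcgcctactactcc
Fosl2: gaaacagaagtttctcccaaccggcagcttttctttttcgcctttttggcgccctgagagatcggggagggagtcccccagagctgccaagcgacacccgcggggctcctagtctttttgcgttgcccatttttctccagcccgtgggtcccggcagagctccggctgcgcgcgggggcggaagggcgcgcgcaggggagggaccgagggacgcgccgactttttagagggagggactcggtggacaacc
Dusp1: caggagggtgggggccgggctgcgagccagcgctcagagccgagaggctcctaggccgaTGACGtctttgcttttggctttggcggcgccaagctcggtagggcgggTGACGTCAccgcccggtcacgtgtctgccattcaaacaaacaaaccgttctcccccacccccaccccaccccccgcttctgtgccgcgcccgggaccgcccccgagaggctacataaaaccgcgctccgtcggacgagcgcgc
Btg2: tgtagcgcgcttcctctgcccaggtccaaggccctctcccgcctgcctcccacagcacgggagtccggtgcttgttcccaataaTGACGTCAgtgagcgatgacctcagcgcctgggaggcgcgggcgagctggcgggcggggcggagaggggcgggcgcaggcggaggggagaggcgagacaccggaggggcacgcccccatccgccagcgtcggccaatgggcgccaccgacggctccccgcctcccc
Jun: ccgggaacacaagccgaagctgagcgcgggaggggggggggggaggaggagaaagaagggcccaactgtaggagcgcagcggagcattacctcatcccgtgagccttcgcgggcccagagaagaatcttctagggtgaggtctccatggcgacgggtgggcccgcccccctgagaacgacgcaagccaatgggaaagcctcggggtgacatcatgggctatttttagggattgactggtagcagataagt
Atf3: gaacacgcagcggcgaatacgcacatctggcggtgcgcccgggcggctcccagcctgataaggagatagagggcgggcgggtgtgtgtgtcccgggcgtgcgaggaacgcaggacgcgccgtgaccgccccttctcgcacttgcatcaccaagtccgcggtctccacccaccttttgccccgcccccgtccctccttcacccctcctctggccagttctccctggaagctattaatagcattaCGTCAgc

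The core TGACG was found in 6 of the 8 promoters and in 17.8% of all 32851 promoter windows of the same length. In Fos it began 129 and 66 bases before the transcription start. The full palindrome TGACGTCA, which holds the core on both strands, was found in Dusp1 and Btg2, beginning 143 and 166 bases before the start, and in 1.55% of all windows. Fosl2 and Jun held no TGACG. Of the other motifs searched on both strands, TATAAA was in the Fos window alone (12.4% of all windows), and neither TGANTCA (6.75%) nor the CArG box (1.47%) was in any of the 8. A match describes letters only, and these windows leave out elements farther upstream.

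Fos was the single member that passed the test. Its signal was 3114 and 2152 in the wildtype arrays of the first batch against 895 and 737 in those labelled knockout, and 597 against 317 in the second batch. Every labelled knockout array lay below every wildtype array of its batch. Fos fell by 1.42 ± 0.18 on the log2 scale, which is 2.68-fold (95% interval -1.83 to -1.01, adjusted p = 0.00577 in limma), and ranked at position 99 of the 27022 probe sets by p. The change was -1.67 in the first batch and -0.91 in the second, and the test of this difference between the batches gave an unadjusted p of 0.025 and adjusted p = 0.242. Fos did not pass in the limma fit without a variance trend (adjusted p = 0.196) or without the batch as a block (adjusted p = 1).

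Read against all features, 1 of the 12 tested member probe sets was called lower and none higher, where 1.22% of all kept probe sets were called lower and 1.04% higher, 2.25% in all. Before adjustment 5 of 12 had p under 0.05 in limma, each of them lower, against 11.1% of all kept probe sets that were lower and 9.33% that were higher. Because the members were chosen with earlier results of these data known, the shares in this paragraph describe them and do not test the class. The median log2 fold change of the 12 was -0.26, beside -0.02 for all kept probe sets. It was -0.53 in the first batch and 0.042 in the second. Groups did not overlap within either batch, with the labelled knockout lower, for 4 of the 12 (Fos, Fosl2 by 1 of its probe sets, Egr1 and Dusp1), against 17.2% of all kept probe sets. In the first batch alone this held for 6 of the 12, against 31.7% of all.

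**Figure D1:**
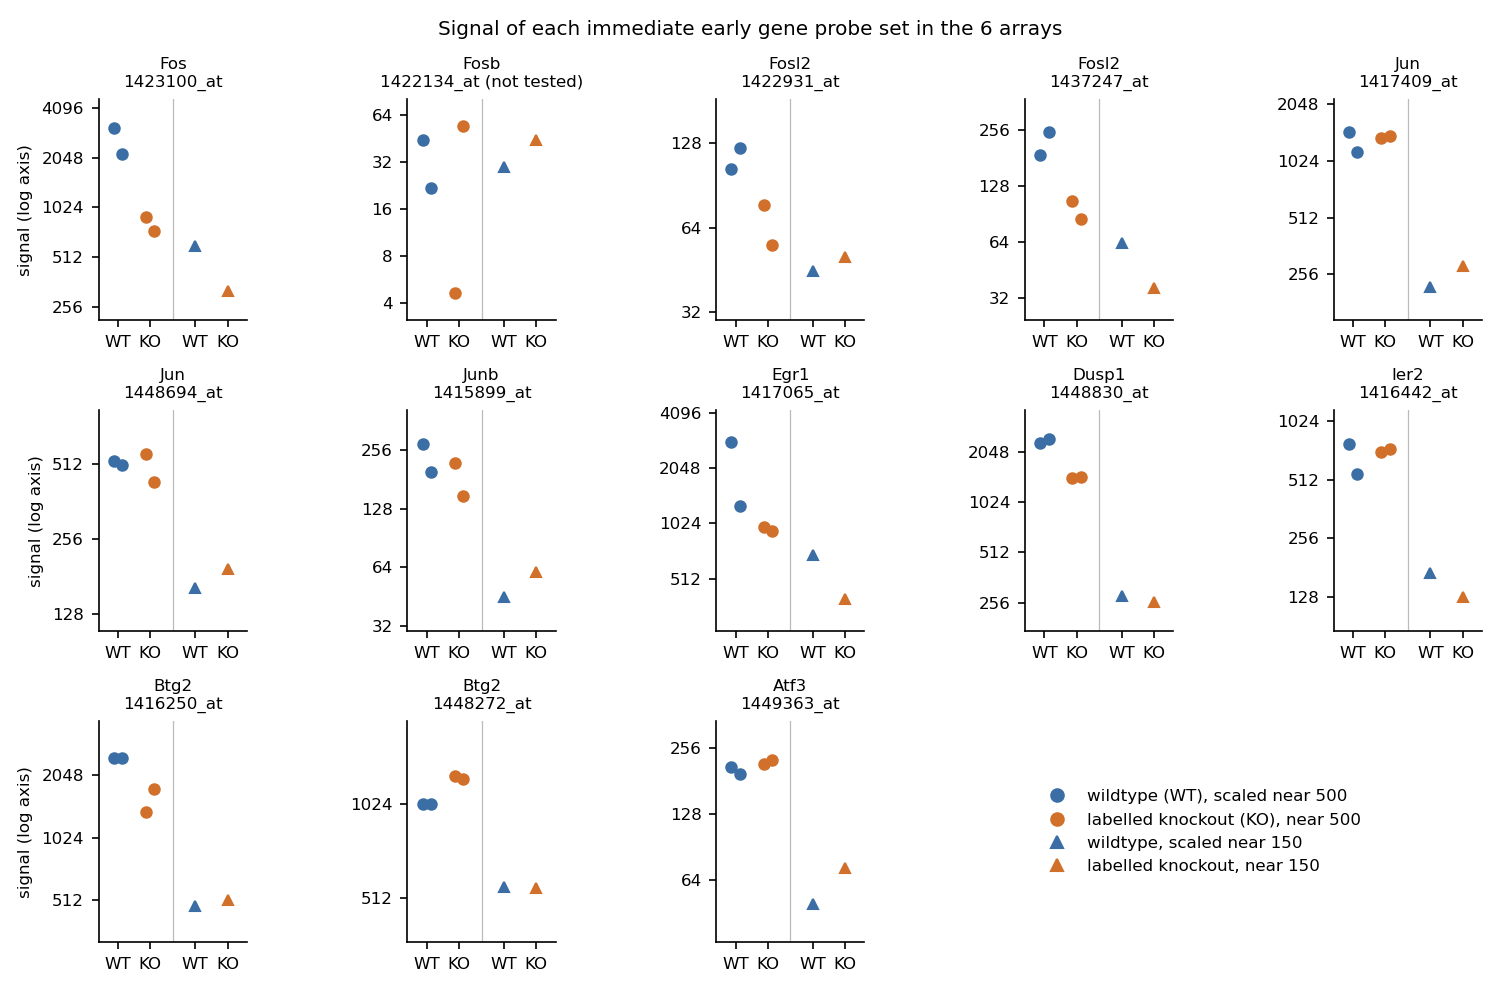
Signal of each of the 13 probe sets in the 6 arrays on a log axis whose range differs between panels, with wildtype (WT, blue) and labelled knockout (KO, orange) shown as circles for arrays scaled near 500 and as triangles for arrays scaled near 150. The WT points of Fos, Fosl2 1437247_at, Egr1 and Dusp1 lie above the KO points on both sides of the grey line, while those of Jun and Ier2 mix in the arrays scaled near 500.

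The other Fos family genes differed in how well they were measured. Fosl2 encodes Fra-2, a Fos family protein without the strong activation domain of Fos. Its brighter probe set, 1437247_at, read 188 and 252 in wildtype against 107 and 85.3 in labelled knockout arrays of the first batch, and 63.1 against 36.4 in the second. The groups did not overlap in either batch, and the log2 fold change was -1.06 ± 0.26, with -1.19 in the first and -0.79 in the second (adjusted p = 0.0668 in limma). This misses the threshold over all 6 arrays. The dimmer Fosl2 probe set, 1422931_at, read 103 and 122 against 76.9 and 55.7 near 500 but 44.9 against 50.5 near 150. It was thus lower in the labelled knockout in the first batch and slightly higher in the second, with -0.47 ± 0.34 over all arrays (adjusted p = 0.471 in limma).

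Fosb, whose protein is a close relative of Fos, read 44.1 and 21.7 in wildtype against 4.64 and 54.1 in labelled knockout arrays near 500, and 29.9 against 44.0 near 150. Both the lowest and the highest of the first 4 values were in the labelled knockout, so the groups overlapped fully. These signals have a geometric mean of 26.1, under the filter's 54.5, and no detection limit is given.

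Neither Jun nor Junb passed. Jun encodes c-Jun, the main partner of Fos, and its brighter probe set, 1417409_at, read 1454 and 1139 in wildtype against 1349 and 1388 in labelled knockout arrays near 500, and 219 against 283 near 150. The wildtype arrays near 500 enclosed both labelled knockout arrays. The log2 fold change was 0.18 ± 0.12 (95% interval -0.08 to 0.45, adjusted p = 0.423 in limma), and for the dimmer probe set, 1448694_at, it was 0.04 ± 0.14 (-0.28 to 0.37, adjusted p = 0.894). These intervals leave out a fall of Jun as large as the estimate for Fos. That dimmer probe set read 526 and 507 against 566 and 436 near 500, and 163 against 193 near 150.

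Junb, a Jun family protein of weaker activating power, read 275 and 198 in wildtype against 221 and 149 in labelled knockout arrays near 500, where the groups overlapped, and 44.9 against 60.6 near 150. Its change was -0.36 in the first batch and 0.43 in the second, with -0.10 ± 0.27 over all arrays (95% interval -0.70 to 0.51, adjusted p = 0.873 in limma). No direction can be read from it.

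Atf3, a stress-induced bZIP factor of the ATF family, was the member whose labelled knockout arrays all lay above the wildtype arrays of their batch, as they did for 16.4% of all kept probe sets. It read 210 and 194 in wildtype against 215 and 226 in labelled knockout arrays near 500, and 50.1 against 72.3 near 150. The margin near 500 was small, and the log2 fold change of 0.26 ± 0.20 did not pass (95% interval -0.19 to 0.71, adjusted p = 0.496 in limma).

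Egr1 had the widest spread among wildtype arrays of the bright members. It read 2834 and 1274 in wildtype against 982 and 931 in labelled knockout arrays near 500, and 689 against 396 near 150. The labelled knockout arrays lay below the wildtype arrays in both batches, but wildtype replicate 2 stood much nearer to them than wildtype replicate 1. The log2 fold change was -0.93 ± 0.23, with -0.99 in the first batch and -0.80 in the second (adjusted p = 0.074 in limma). Without wildtype replicate 2 it was -1.24 and passed (adjusted p = 0.0397), and without wildtype replicate 1 it was -0.58 and did not (adjusted p = 0.143).

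The brightest probe sets of Dusp1 and Btg2 had lower log2 fold changes in the first batch than in the second, a difference that did not pass the adjusted test for either. Dusp1 read 2303 and 2435 in wildtype against 1431 and 1445 in labelled knockout arrays near 500, where the groups stood far apart relative to their spread, and 281 against 258 near 150. The change was -0.72 in the first batch and -0.12 in the second, with -0.52 ± 0.12 over all arrays (adjusted p = 0.0635 in limma). The test of the difference between the batches gave an unadjusted p of 0.00313 and adjusted p = 0.103.

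Btg2 gave opposite values with its 2 probe sets. The brighter, 1416250_at, read 2484 and 2488 in wildtype against 1354 and 1763 in labelled knockout arrays near 500, and 482 against 512 near 150. Its log2 fold change was -0.69 in the first batch and 0.087 in the second, and over all arrays -0.43 ± 0.16 (adjusted p = 0.175 in limma). Without knockout replicate 1 it was -0.25 (adjusted p = 0.458). The difference between the batches had adjusted p = 0.118 in limma. The other, 1448272_at, read 1028 and 1025 against 1267 and 1233 near 500, so that here the labelled knockout was higher, and 553 against 551 near 150, with 0.19 ± 0.096 over all arrays (adjusted p = 0.304 in limma). Both probe sets carry the same RefSeq transcript accession in the platform's annotation, and no direction is given for the gene.

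Ier2 read 779 and 550 in wildtype against 709 and 736 in labelled knockout arrays near 500, and 170 against 127 near 150. The groups overlapped near 500, and the log2 fold change was -0.04 ± 0.17 (95% interval -0.42 to 0.33, adjusted p = 0.913 in limma).

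**Figure D2:**
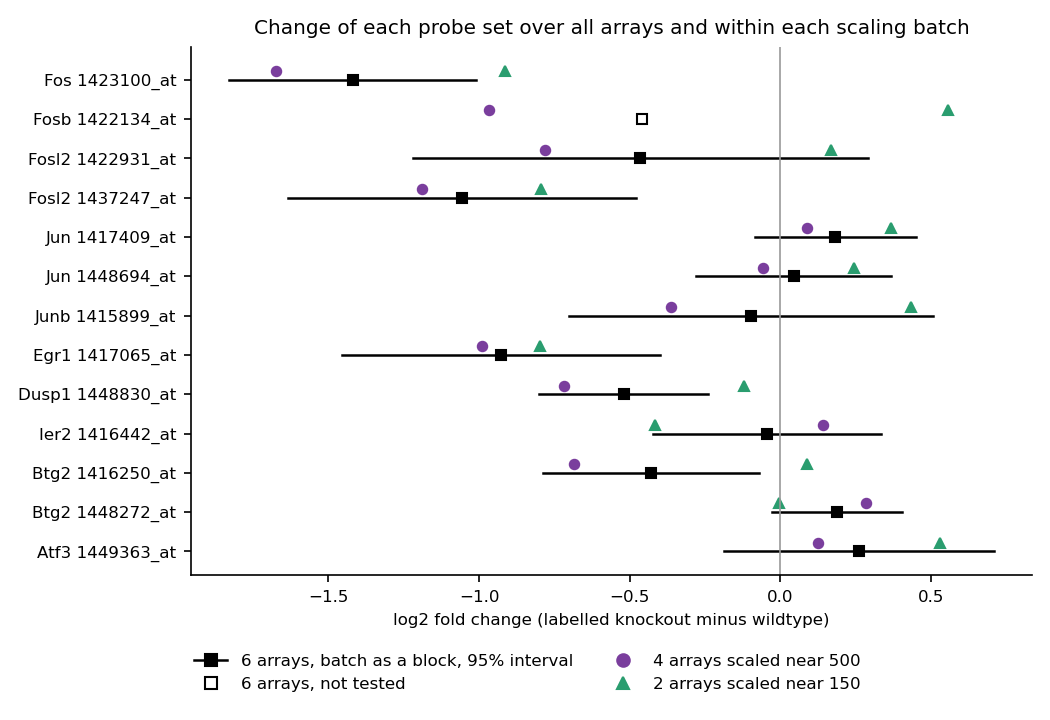
Log2 fold change of each probe set (labelled knockout minus wildtype) over all 6 arrays with its 95% interval (black squares; open square, Fosb, not tested), and within the 4 arrays scaled near 500 (purple circles) and the 2 scaled near 150 (green triangles). The purple circle lies left of the green triangle for all but Ier2 and Btg2 1448272_at, and for Fos, Fosl2 1437247_at, Egr1 and Dusp1 alone both lie left of 0.

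The sets of arrays differed in how many members they called. In a limma fit of the first batch alone, 5 of the 12 probe sets were called lower and none higher, where 7.70% of all kept probe sets were called lower and 5.94% higher. These 5 were Fos (-1.67 ± 0.16, adjusted p = 8.49e-05), Dusp1 (-0.72 ± 0.085, adjusted p = 0.000397), Btg2 by 1416250_at (-0.69 ± 0.12, adjusted p = 0.00369), Fosl2 by 1437247_at (-1.19 ± 0.30, adjusted p = 0.0253) and Egr1 (-0.99 ± 0.27, adjusted p = 0.0325). In the second batch, with 1 array a group and no test, 6 of the 12 were lower and 6 higher. The lower ones there were Fos, Fosl2 by 1437247_at, Egr1, Ier2, Dusp1 and Btg2 by 1448272_at, the last by less than 0.01. Over all arrays the difference of the effect between the batches had an unadjusted p under 0.05 for 3 of the 12 (Fos, Dusp1 and Btg2 1416250_at), and none passed after adjustment, where 1.19% of all kept probe sets did.

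**Figure D3:**
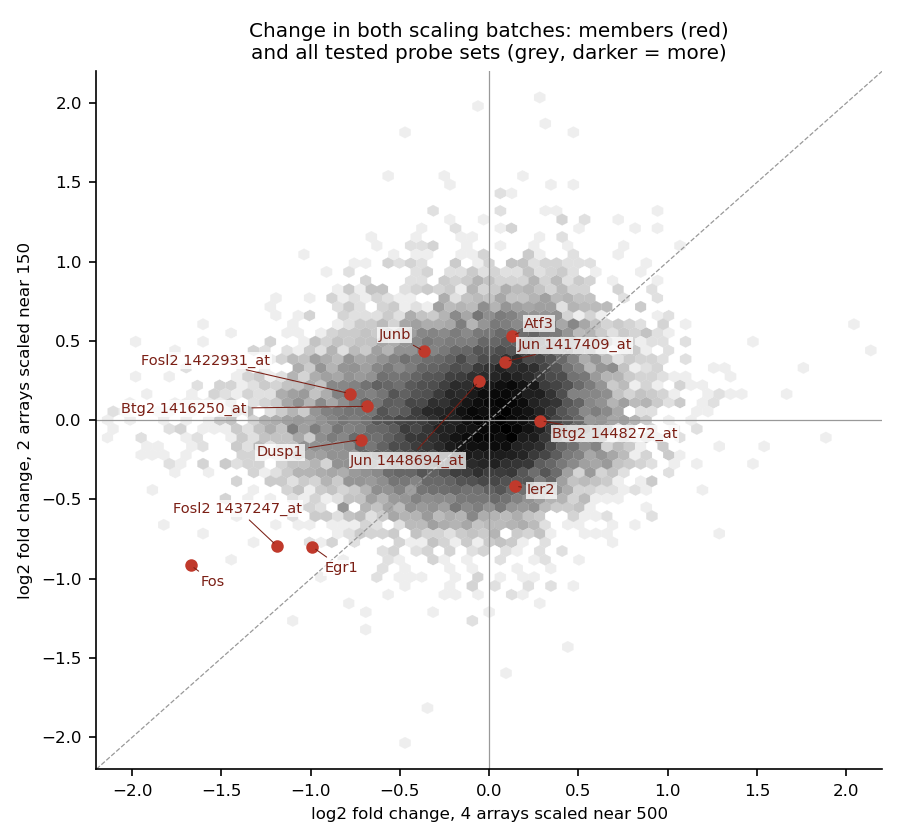
Log2 fold change (labelled knockout minus wildtype) in the 2 arrays scaled near 150 against that in the 4 arrays scaled near 500, for the 12 tested member probe sets (red) over all kept probe sets (grey, darker where more lie; 187 lie outside the axes, and the dashed line marks equal change). Fos, Fosl2 1437247_at and Egr1 stand at the lower left, at -1.67 and -0.91, -1.19 and -0.79, and -0.99 and -0.80, and Dusp1 and Btg2 1416250_at lie to the left near 0 on the vertical axis.

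Exact two-sided permutation of the group labels within batches has 12 arrangements here and cannot give less than p = 0.167, which was its value for Fos, Fosl2 1437247_at, Egr1, Dusp1 and Atf3.

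Of the members, Dusp1, Fosl2 and Egr1 had patterns over the arrays most like that of Fos. After subtracting each batch's mean, log2 values over the 6 arrays correlated with those of Fos at r = 0.922 for Dusp1, 0.907 for Fosl2 1437247_at and 0.905 for Egr1, and at 0.773 for Btg2 1416250_at, 0.765 for Fosl2 1422931_at and 0.473 for Junb. Ier2 (0.0883) and Jun (0.0803 and -0.333 for its 2 probe sets) did not follow Fos, and Atf3 (-0.577) and Btg2 1448272_at (-0.888) ran against it. These values describe 6 arrays that share 2 batches and the same 2 groups, and the group difference itself is part of them.

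The genes whose batch-centred pattern was most like that of Fos were Myo5c (r = 0.998), Hspa1a (0.996), Taok3 (0.993), Tle3 (0.992) and Slc25a37 (0.992), among 2516 probe sets with at least 0.5 of the spread of Fos. Each gene was taken here by its probe set most like Fos, which need not be its brightest, and its other probe sets are not given. Over the 6 arrays 121 of these probe sets had r above 0.95. The group difference is part of this likeness, so a fall in the genes named here was built into their choice. Hspa1a, an inducible heat shock protein gene, read 2214 and 1704 in wildtype against 528 and 439 in labelled knockout arrays near 500, and 199 against 103 near 150. On the log2 scale Taok3, a kinase gene, fell by 1.02 (adjusted p = 0.0095 in limma) and Slc25a37, which encodes a mitochondrial iron carrier, by 0.87 (adjusted p = 0.0301). The myosin gene Myo5c (-0.80, adjusted p = 0.237) and the corepressor gene Tle3 (-0.69, adjusted p = 0.178) did not pass. The Myo5c probe set was dim, with 139 and 110 in wildtype against 66.3 and 62.7 in labelled knockout arrays near 500, and 25.3 against 17.6 near 150.

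Fos lies on chromosome 12, as does Esrrb, with 8 protein-coding genes between them in the gene order of GRCm38.p6. Of these 7 were tested, and none passed in either direction. Jdp2, which encodes a bZIP repressor of AP-1 and is the next gene after Fos, had 0.11 ± 0.15 (adjusted p = 0.729 in limma), with 0.31 in the first batch and -0.29 in the second. Log2 fold changes of the others ran from -0.29 for Flvcr2 to 0.25 for Gpatch2l. The 5 tested genes nearest to Fos on its other side had -0.12 to 0.26, with adjusted p of 0.38 or more. Which alleles the labelled knockout mice carry at this place, C57Bl/6 or Sv129, was not tested.

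**Figure D4:**
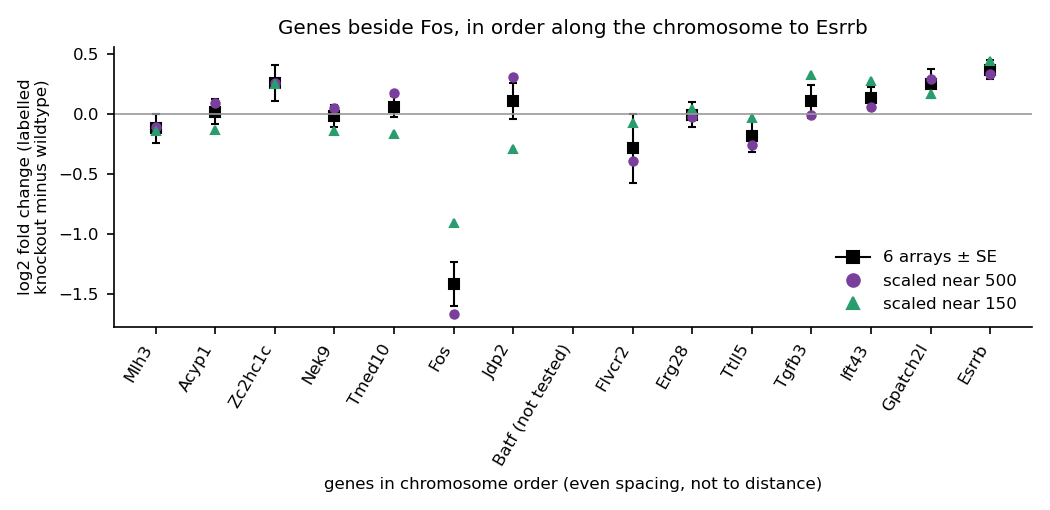
Log2 fold change (labelled knockout minus wildtype) of the 5 tested genes beside Fos on one side and of all coding genes from Fos to Esrrb, in chromosome order with even spacing, over 6 arrays with SE (black squares) and within each scaling batch (circles near 500, triangles near 150). Fos stands at -1.42, while the tested genes around it lie between -0.29 and 0.37.

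Other genes of the same pathways were taken from lists by name, each gene by its brightest kept probe set. Over all 12536 genes represented, 1.48% were called lower and 1.28% higher. Of 36 further immediate early and activity-induced genes, 26 were tested and had a median log2 fold change of -0.021, beside 0.02 for all genes. Egr2, Egr3, Egr4, Nr4a3, Arc, Npas4, Myc, Csrnp1, Plk3 and Maff had no kept probe set and were not tested, so this median leaves them out. Sgk1, a kinase gene induced by glucocorticoids and by activity, fell from 6606 and 8493 to 3020 and 3728 near 500 and from 1765 to 749 near 150, a log2 fold change of -1.18 ± 0.11 (adjusted p = 0.00112 in limma). Every labelled knockout array of Sgk1 lay below the wildtype arrays of its batch, with changes of -1.16 in the first and -1.24 in the second. Ier5, a relative of Ier2, rose from 517 and 633 to 1089 and 1051 near 500 and from 133 to 176 near 150 (0.74 ± 0.14, adjusted p = 0.0321), though its 2 other kept probe sets had -0.74 and -0.10 and did not pass. The other 24 tested genes did not pass.

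Among other AP-1 bZIP genes 6 were tested and none passed, with a median of 0.09. Mafg, a small Maf gene, had -0.59 ± 0.13 (adjusted p = 0.0563 in limma), and Jund, the Jun family member that is not induced early, had 0.17 ± 0.12 (adjusted p = 0.485). Of 12 tested MAP kinase phosphatase and feedback inhibitor genes other than Dusp1, 1 fell and 11 did not pass, with a median of -0.16. The one that fell was Dusp4, a nuclear MAP kinase phosphatase gene, by 0.55 ± 0.11 in log2 (adjusted p = 0.0391 in limma; -0.62 in the first batch and -0.41 in the second). Of 24 tested genes of the kinases and transcription factors upstream, 1 fell and 23 did not pass, with a median of -0.15 and with 20 below 0, where 46.9% of all genes were below 0. Crebbp, the acetyltransferase that binds phosphorylated CREB, fell by 0.44 ± 0.086 (adjusted p = 0.0363), and its 3 other kept probe sets had -0.38, -0.27 and -0.24 without passing.

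Genes known as later products of neuronal activity did not pass in any of 12 tested, with a median of -0.08. The 2 with the smallest p were Nptx2, a synaptic pentraxin gene (0.40 ± 0.16, adjusted p = 0.202 in limma), and Plat, the tissue plasminogen activator gene (0.27 ± 0.12, adjusted p = 0.236). Both were above 0, while 7 of the 12 were below 0, and Nptx2 had 0.64 in the first batch but -0.096 in the second. Of 11 tested heat shock genes 2 fell and 9 did not pass, with a median of -0.06. Those that fell encode inducible Hsp70, and Hspa1b fell by 2.15 ± 0.12 in log2 (adjusted p = 4.03e-05 in limma) and Hspa1a by 1.66 ± 0.21 (adjusted p = 0.00549). These neighbours are near-identical, so each probe set may read both.

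**Figure D5:**
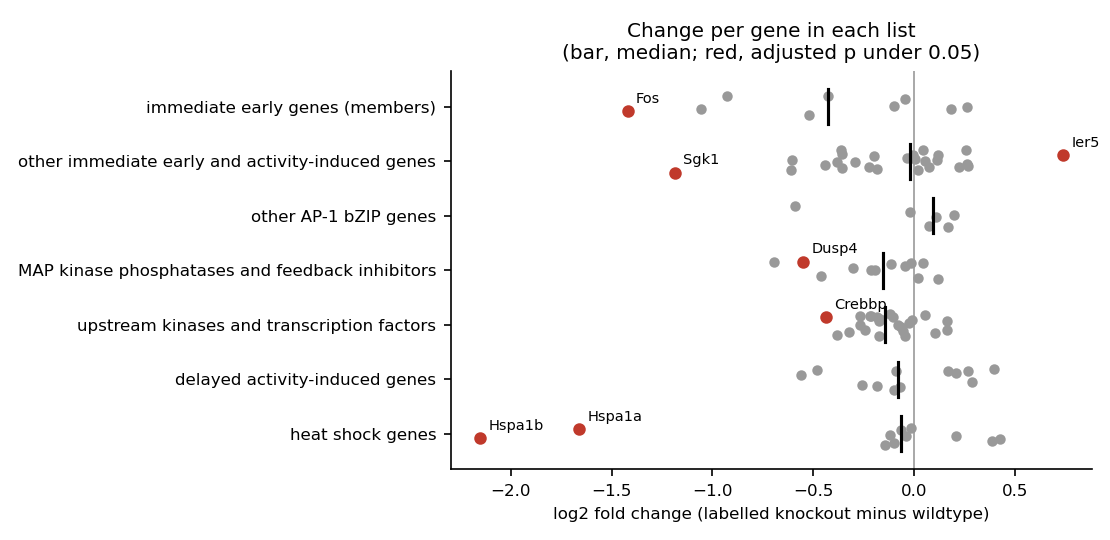
Log2 fold change (labelled knockout minus wildtype) of each tested gene, by its brightest kept probe set, for the immediate early genes (9 genes) and 6 related lists, with each list's median as a bar and genes with adjusted p under 0.05 in red and named. The member median is -0.43 and the other medians run from -0.16 to 0.09. This member median is the value of Btg2 by 1416250_at, whose other probe set had 0.19. By batch the member median was -0.69 in the first and -0.12 in the second. Points are spread vertically for legibility only.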

How the data were processed

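The authors deposited 1 table of probe set intensities on a linear scale for 45101 probe sets, 64 of them controls, made with GCOS 1.4 and MAS5, per the submitters' processing notes. Per the labels' protocols, total RNA was amplified once with an oligo dT primer, so signal depends on 3′ ends. Groups and replicate numbers came from sample titles, and the scaling batch from each array's mean without the top and bottom 2% of probe sets. Whether samples of a group are biological replicates beyond the pools is not stated, so a p-value then measures only how far these samples spread, which may be technical.

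Log2 of the signal was used without normalizing further. Probe sets whose mean log2 signal was at or above the 40th percentile (a geometric mean of 54.5) were kept. The test was limma 3.58.1 under R 4.3.3 (two-sided, with the prior variance following the mean signal). On simulated data for the 27022 kept probe sets the fit recovered 44% of probe sets changed by 1 and 77% of those changed by 2 on the log2 scale. In it 100 probe sets were changed at each size, the noise was independent between probe sets, and there were 6 false calls. The real data may hold another share of changed probe sets, so these percentages need not apply to them. Symbols came from the platform's annotation, updated through gene identifiers to GRCm38.p6, and 34945 probe sets had 1 symbol, 932 several and 9160 none. All member probe sets are named, with the 5 genes most like Fos over the arrays and its neighbours towards Esrrb. Of each other list, the genes past the threshold, up to 6, or else the 2 with the smallest p are named, and of the marker lists only counts are given. The members and lists were chosen with earlier results of these data known.

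The replicate numbers were checked for pairing. Deviations from group means, with the scaling batch left in, correlated at 0.57, 0.67 and 0.843 for numbers 1, 2 and 3. Crossed numbers 1 and 2 gave 0.607 and 0.627, so the shared part is mainly the scaling batch. Within the arrays scaled near 500 alone the correlation for number 1 was 0.0153. Alternatives covered the block, scaling, pseudocount, filter, variance trend and each array left out.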

Additional observations from a re-analysis of the deposited data

How the results depend on the processing

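Fos passed in 15 of 17 alternatives, with log2 fold changes of -1.67 to -1.20, limma's adjusted p of 8.49e-05 to 1 and, with a replicate block, 0.00833. The 2 exceptions were the fit without the batch as a block and the fit without a variance trend.

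The count of member probe sets called lower was 1 with all arrays and with a replicate block. It was 0 without the batch block and 0 without a variance trend, 2 with the filter at the 60th percentile, where Dusp1 passed as well (adjusted p = 0.0468). In the first batch alone it was 5. It ran from 1 to 5 when 1 array was left out, with 5 without wildtype or labelled knockout replicate 3, since the batch of the left array then adds nothing to the comparison, and 2 without wildtype replicate 2, where Egr1 passed too. None was called higher under any of these settings.

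Of all kept probe sets 329 were called lower and 280 higher. The counts were 0 and 0 without the batch block (118 with unadjusted p under 0.05, 0 of them members), 107 and 93 with a replicate block, 522 and 433 with the filter at the 60th percentile, 6 and 13 without a variance trend, and 2082 and 1605 in the arrays scaled near 500 alone. With any 1 of the 6 arrays left out they ran from 38 to 2209 lower and from 39 to 1513 higher. Without a filter 220 were called lower and 185 higher. The lower share of calls was 54.0% and moved to 31.6% without a variance trend.

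In the arrays scaled near 500 alone the sign turned for Jun 1448694_at (-0.056) and Ier2 (0.14), neither of which passed. With 1 array left out the sign also varied for Jun 1448694_at (-0.056 to 0.18), Ier2 (-0.24 to 0.14) and Junb (-0.36 to 0.14). Centring, quantile normalization, pseudocounts of 16 and 64 and no filter changed no call among the members. No further alternative was added. The replicate block changed no call among the members. The number of arrays limits the precision, and no detection calls were at hand to mark signals near background.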
